A study of Rattus rattus with 23 samples.

Results

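The genes described here encode the machinery by which basal cells of the nasal respiratory epithelium hold to their basement membrane, together with the transcription factor that marks those cells. The 9 members are Tp63, Lama3, Lamb3, Itga6, Itgb4, Itga3, Itgb1, Dst and Cd44, taken by their symbol in the platform's probe annotation, out of 14218 genes that have a probe set with 1 symbol. They are read by 19 of the array's 31099 probe sets, each kept separate. A probe set entered the tests where its signal lay above the median of its own array on at least 3 arrays, which 13 of the 19 did, and each of the 9 genes kept at least 1. The 6 that did not are 1371107_a_at for Tp63, 1371185_at for Itga6, 1385122_at, 1395274_at and 1397469_at for Dst, and 1387952_a_at for Cd44.

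Male Sprague-Dawley rats breathed air or 200 ppm hydrogen sulfide (H2S), a gas that injures the nasal lining, through a nose-only system for 3 h a day, and respiratory epithelium was cut out by laser capture at the site of injury and regeneration. Each of the 23 arrays holds 1 animal, and animals are named by the number in their label. After 1 exposure day, animals 3, 4, 5 and 6 were sampled at 3 h, animals 8, 9 and 10 at 6 h and animals 11, 12, 13 and 14 at 24 h from the start of exposure. After 5 exposure days, animals 23, 24, 25 and 26 were sampled at 144 h. Air animals were sampled at 24 h (15, 16, 17 and 18) and at 144 h (19, 20, 21 and 22). The 3 h and 6 h animals have no air group of their own time and were set against air at 24 h, so exposure and time cannot be told apart there. The labels' treatment text gives 5 exposure days for animals 6, 14 and 18, against their titles of 3 h, 24 h and 24 h. The groups follow the titles. The labels give an age of 60 days and the design text 10 weeks.

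Basal cells are the progenitors of the airway lining, and p63, the product of Tp63, is the transcription factor that maintains them. They sit on the epithelial laminin, called laminin-5 in the older naming, which includes the chains encoded by Lama3 and Lamb3. Integrin alpha 6 beta 4 (Itga6, Itgb4) grips it in hemidesmosomes and is tied to keratin filaments by plakins, among them the epithelial form of dystonin (Dst). Integrin alpha 3 beta 1 (Itga3, Itgb1) binds the same laminin and links to actin, and Cd44 is a receptor for hyaluronan that basal cells and leukocytes carry. After injury of an airway surface, basal cells spread over the exposed membrane and lay down fresh epithelial laminin.

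The arrays of animals 18 (air, 24 h) and 22 (air, 144 h) stood apart from the rest: the median correlation with the other arrays was 0.408 and 0.685, against 0.820 to 0.900 for the other 21. Both belong to the air groups, so member values are given with and without them where they matter. The deposited signals had trimmed means of 500.05 to 500.17, while array medians ran from 136 to 341. General epithelium markers were present in each group (Epcam signal from 2362 to 24944 over all animals). The captured material was not pure epithelium: Col1a1, which encodes the main collagen of fibroblasts and bone, read 9584 to 119443, and Ibsp, which encodes a bone matrix protein, read 4115 to 39969. Laminin chains, integrins and Cd44 are expressed in those tissues too, and the part of other cells in the member values was not tested. In whole captured tissue, a smaller number of cells of one type and less RNA per cell cannot be told apart.

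Against air, the laminin chain Lamb3 had the largest difference with the smallest p-value of the 13 tested probe sets, a log2 difference of 1.63 at 24 h. Tp63 averaged above air in each of the 4 exposed groups, of which those at 3 h, 6 h and 24 h were set against the same air animals. Of the strong integrin probe sets, Itgb1 1368819_at differed from air by 0.90 at 3 h and 0.89 at 6 h, values that depended on animal 18 (given with the gene), and Itga6 1383240_at and Itga3 differed from air by at most 0.56 on the log2 scale in any of the 4 comparisons. None of these differences passed the test. With limma and Benjamini-Hochberg adjustment over all 19822 tested probe sets, 0 of the 13 member probe sets had an adjusted p under 0.05 in any of 9 comparisons. Over all probe sets, few calls were made in the same comparisons: 0.0807% of them with H2S at 3 h, 0.00504% at 6 h, 0.0101% at 24 h and 0% at 144 h, each against air. In the remaining 5 comparisons the share was 0.00504% for 6 h against 3 h of H2S, 0.0101% for 24 h against 6 h, and 0% for 144 h against 24 h, for the 2 air groups and for the difference of the exposure effects.

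At an unadjusted p under 0.05, 2 member probe sets stood out at 3 h (Lamb3, Itgb1 1368819_at), 1 at 6 h (Itgb1 1368819_at), 2 at 24 h (Lamb3, Tp63) and 2 at 144 h (Itgb1 1387346_at, Dst 1382421_at), and each of these was higher with H2S. The share of all probe sets at that level was 9.8%, 5.81%, 8.09% and 7.8%, and 1 or 2 of 13 is near that background. In the other comparisons 1 member was past that level for 6 h against 3 h (Dst 1398598_at; 4.21% of all probe sets), 1 for 24 h against 6 h (Lamb3; 3.06%), 0 for 144 h against 24 h (2.85%), 2 between the air groups (Itgb1 1387346_at, and Lama3, which had passed the filter through its 144 h arrays; 8.37%) and 2 for the difference of the exposure effects (Lamb3, Itgb1 1387346_at; 4.69%). The median log2 difference of the 13 was 0.56 at 3 h, 0.23 at 6 h, 0.37 at 24 h and 0.019 at 144 h. Over all tested probe sets it was 0.087, 0.079, 0.073 and -0.022. The smallest adjusted p among members was 0.447, 0.781, 0.352 and 0.580 in the same order, and the median standard error of the 13 was 0.468 (0.505 at 6 h).

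**Figure D1:**
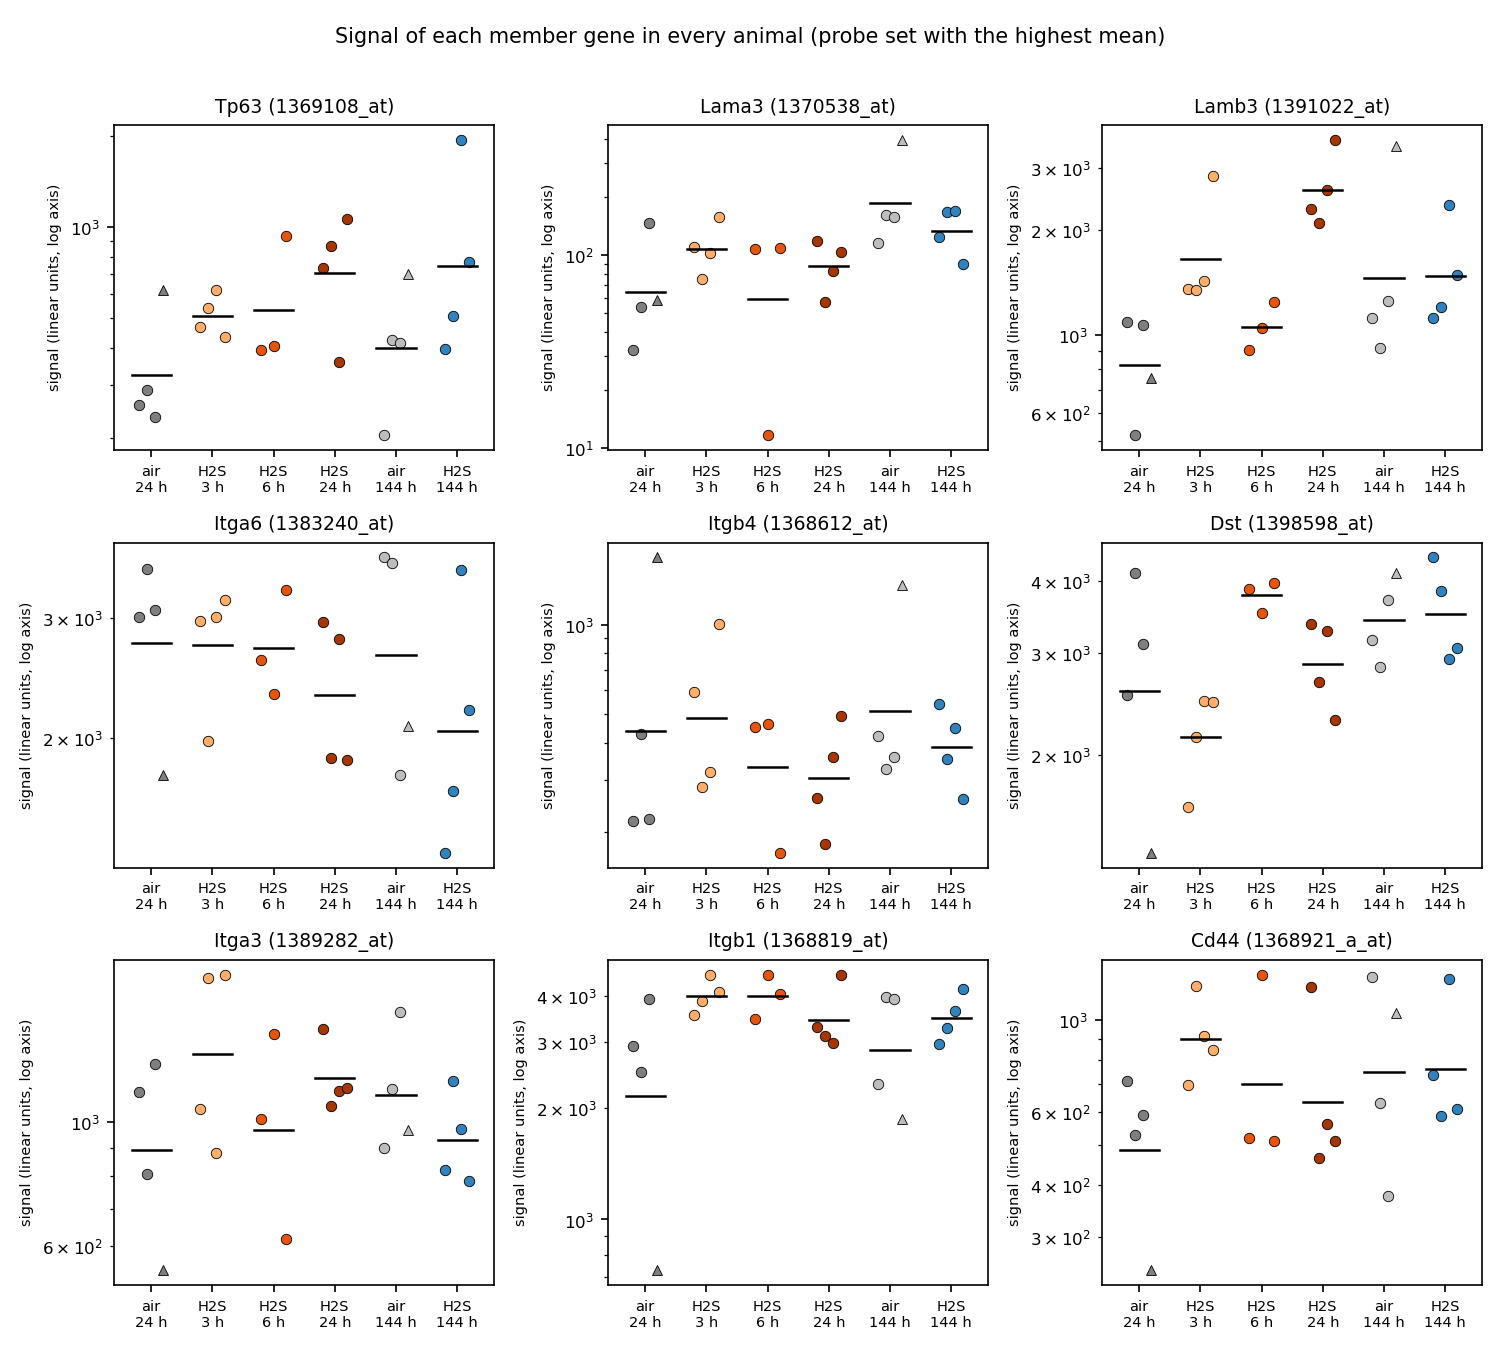
Signal of each of the 9 genes in every animal (the tested probe set with the highest mean; linear units on a log axis), by group; circles are animals, triangles mark animals 18 and 22, and the line is the group mean taken on the log2(signal + 16) scale. The 4 Lamb3 signals of the 24 h H2S group, 2283, 2089.7, 2601 and 3603, lie above those of the 24 h air group, while the Itga6 and Itgb4 groups overlap.

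Tp63 is the basal cell identity factor. Its tested probe set 1369108_at was above the array median on all 23 arrays. In the order of animal numbers, as in all lists that follow, the air signals were 258, 289, 235 and 622 at 24 h. The exposed animals read 466, 539, 621 and 433 at 3 h, 393, 405 and 937 at 6 h and 736, 870.3, 359 and 1064 at 24 h. In 3 of 4 air animals the signal was below every exposed animal of the first day, and the overlap came from animal 18 alone at 622. At 144 h the air animals read 205, 423, 415 and 699 and the exposed animals 396, 510.4, 1951 and 768. Animal 25 read highest of all 23, and the air and exposed ranges overlapped.

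On the log2(signal + 16) scale, which understates the differences of low signals, the Tp63 mean was 8.41 ± 0.615 (SD, n = 4) in air at 24 h and 9.49 ± 0.663 (SD, n = 4) in H2S at 24 h. It was 9.04 ± 0.224 (SD, n = 4) at 3 h, 9.10 ± 0.693 (SD, n = 3) at 6 h, and 8.70 ± 0.696 in air and 9.57 ± 0.991 with H2S at 144 h (SD, n = 4 each). The 24 h difference was 1.08 (SE 0.476, limma adjusted p 0.612), a fold of 2.12 with a 95% interval from 0.10 to 2.07 on the log2 scale. Without animals 18 and 22 it was 1.39, with limma adjusted p 0.533. The differences at 3 h, 6 h and 144 h were 0.63, 0.69 and 0.87, with limma adjusted p of 0.651, 0.782 and 0.682. Ordered by mean level, the groups ran from air at 24 h, air at 144 h, H2S at 3 h, H2S at 6 h and H2S at 24 h to H2S at 144 h, and no tested step between neighbours exceeded its error: the steps to 6 h, to 24 h and to 144 h of exposure, each from the time before, were 0.057, 0.40 and 0.077. The other probe set of the gene, 1371107_a_at, read 1.85 to 62.7 and was above no array's median.

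Lama3 and Lamb3 encode the alpha 3 and beta 3 chains of that laminin, the ligand of both integrin pairs below. Lamb3 1391022_at was above the median on all 23 arrays. Its air signals at 24 h were 1092, 519, 1068 and 755. After H2S they were 1352, 1342, 1428 and 2838 at 3 h, 908, 1049.8 and 1246 at 6 h and 2283, 2089.7, 2601 and 3603 at 24 h. All 4 animals at 3 h and all 4 at 24 h read above each of the 4 air animals at 24 h, whereas 2 of the 3 animals at 6 h lay within the air range. At 144 h the air animals read 1123, 918, 1249 and 3449 and the exposed animals 1118, 1208, 2344 and 1486, in overlapping ranges that hold animal 22 as the highest air value.

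The Lamb3 mean was 9.71 ± 0.494 (SD, n = 4) in air at 24 h, 10.70 ± 0.521 (SD, n = 4) at 3 h, 10.07 ± 0.225 (SD, n = 3) at 6 h and 11.35 ± 0.343 (SD, n = 4) at 24 h. The 24 h difference was 1.63 (SE 0.394), a fold of 3.10 with a 95% interval from 0.82 to 2.45 on the log2 scale. Its p ranked 21 among 19822 probe sets and its limma adjusted p was 0.352. The adjusted p was 0.0416 for a difference of 1.42 when arrays were weighted by their quality, the single setting of those tried in which a member passed 0.05. The difference was 1.59 without animals 18 and 22 and 1.42 to 1.77 with each animal left out in turn. At 3 h the difference was 0.99 (SE 0.394, limma adjusted p 0.447).

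Groups without overlap held 1 of 13 member probe sets among those higher than air at 3 h and 1 at 24 h, Lamb3 in both, against 3.02% and 2.22% of all probe sets; both comparisons use the same air animals. The step from 3 h to 6 h of exposure had no overlap either, with lower signals at 6 h (-0.63, limma adjusted p 1), and that from 6 h to 24 h had higher signals at 24 h (1.28, unadjusted p 0.00664 from limma, adjusted p 1). Among all probe sets, 3.78% and 3.4% had such a separation in those directions. The highest animals of the 3 h and 24 h groups, 6 and 14, are those whose treatment text names 5 exposure days. With animals 6, 14 and 18 left out, the differences were 0.69 at 3 h and 1.43 at 24 h.

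Ordered by mean level, the Lamb3 groups ran from air at 24 h, H2S at 6 h, air at 144 h, H2S at 144 h and H2S at 3 h to H2S at 24 h. By 144 h, Lamb3 in exposed and air animals averaged 10.54 ± 0.474 and 10.52 ± 0.844 (SD, n = 4 each), a difference of 0.019 with a 95% interval from -0.80 to 0.84. Without animals 18 and 22 the 144 h difference was 0.43. The exposure effect at 144 h minus that at 24 h was -1.61 (SE 0.557, unadjusted p 0.00839 and adjusted p 0.946 by limma). The air groups themselves differed, by 0.81 from 24 h to 144 h (limma adjusted p 0.6), and by 0.36 without animals 18 and 22.

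Lama3 1370538_at was near the floor, above the median on 4 of 23 arrays. Its signals at 24 h in air were 32.2, 53.7, 147 and 58.5, and after H2S 111, 74.6, 102 and 157 at 3 h, 108, 11.6 and 108 at 6 h and 119, 57.3, 82.3 and 103 at 24 h. At 144 h they were 115, 161, 158 and 396 in air and 125, 167, 169 and 89.6 after H2S. Exposed and air ranges overlapped at each time, and the highest signal was that of animal 22. Differences against air were 0.63, -0.088, 0.38 and -0.43 at 3 h, 6 h, 24 h and 144 h, with limma adjusted p from 0.648 to 0.967. The 4 arrays above the median were all of 144 h (2 air, 2 H2S), so the probe set passed the filter through the groups where it was high, and its air means, 6.32 ± 0.739 at 24 h and 7.66 ± 0.715 at 144 h (SD, n = 4 each), are given as levels only.

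**Figure D2:**
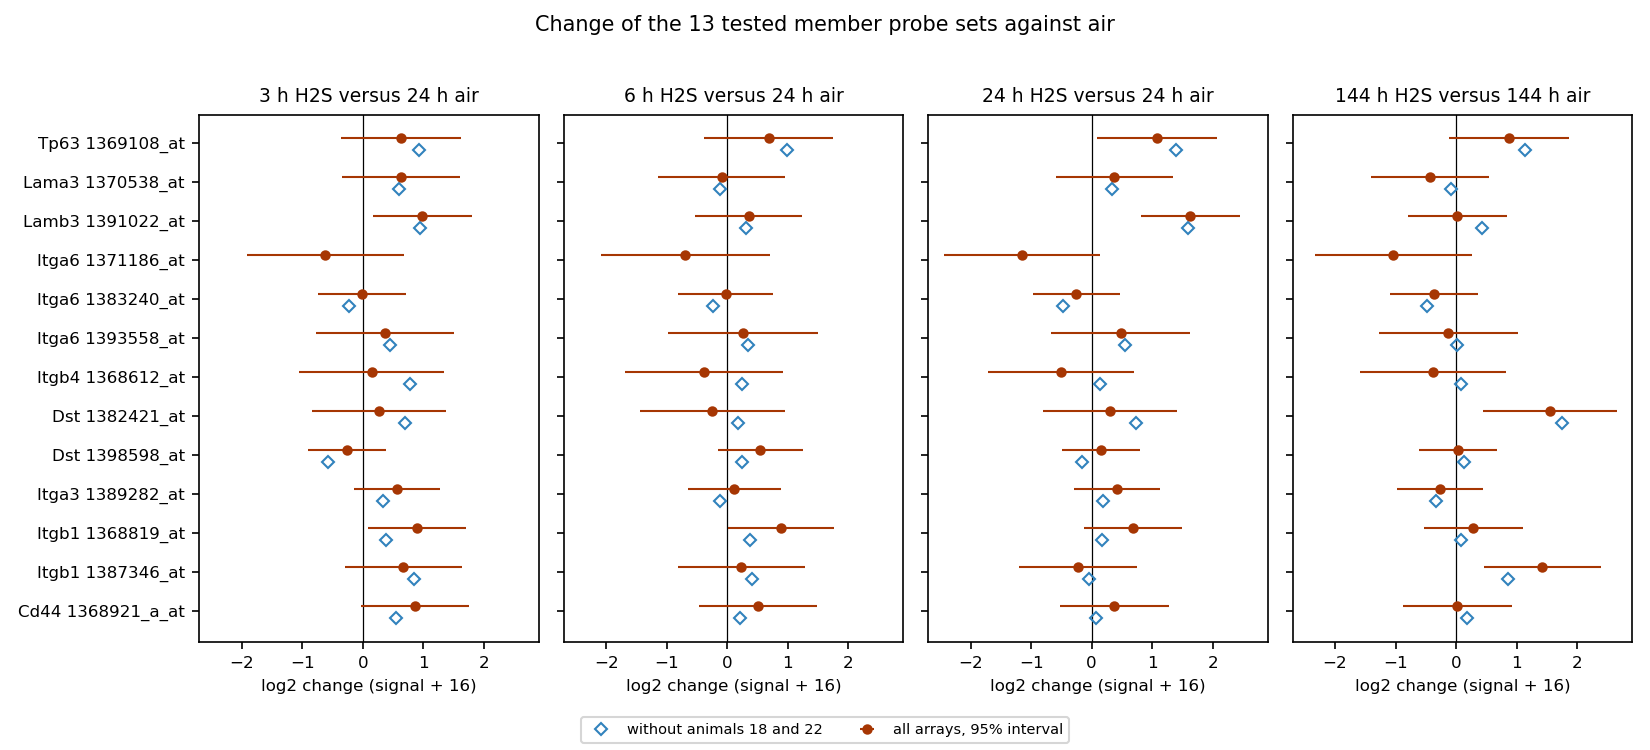
Log2 difference (signal + 16) of the 13 tested member probe sets against air in the 4 exposure comparisons; filled points with bars are the limma estimate and its 95% interval over all arrays, open diamonds the estimate without animals 18 and 22. Lamb3 at 24 h, 1.63, is farthest from 0 relative to its interval. Itga6 1371186_at has no diamond because it passed the filter only with animals 18 and 22, which gave its highest signals.

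Itga6 and Itgb4 encode the 2 subunits of the hemidesmosome integrin. Itga6 1383240_at was strong in every animal. The signals were 3009.98, 3547, 3081 and 1764 in air at 24 h and 3690.3, 3615, 1762 and 2081 in air at 144 h. After H2S they were 2972, 1976, 3014 and 3189.7 at 3 h, 2602, 2319 and 3299.5 at 6 h, 2968, 1865, 2799 and 1857 at 24 h and 1354, 1669, 3530.1 and 2201 at 144 h. All exposed groups overlapped their air group. The means were 11.44 ± 0.44 (SD, n = 4) in air and 11.19 ± 0.364 (SD, n = 4) with H2S at 24 h. The difference there was -0.25, with a 95% interval from -0.98 to 0.47, an interval that holds differences of both signs. At 3 h and 6 h it was -0.01 and -0.026, and at 144 h -0.37 with an interval from -1.09 to 0.36.

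The other Itga6 probe sets were low. Probe set 1371186_at was above the median on 3 arrays, those of animal 18 (1015) and animal 22 (333) among its highest, and its other signals lay between 26.4 and 189. It left the filter without those animals, and its differences against air with them were -0.62, -0.69, -1.15 and -1.04. Probe set 1393558_at, also above the median on 3 arrays, read 11.2 to 227. Those arrays were all of exposed animals, 1 each at 3 h, 24 h and 144 h, so it passed the filter through exposed groups. Its differences against air, 0.37, 0.26, 0.48 and -0.13, are given as values only. The untested 1371185_at read 13.3 to 686, with animal 18 highest. Over the 23 arrays the log2 values of 1383240_at and 1371186_at correlated at r = -0.15 (Spearman 0.042), and without animals 18 and 22 at r = 0.17 (Spearman 0.24, 21 arrays).

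Itgb4, the partner of alpha 6 whose long cytoplasmic tail binds the plakins, was read by 1368612_at. Signals were 217, 428, 221 and 1686 in air at 24 h and 593, 284, 319 and 1004, 450.3, 461 and 170.1 and 261, 182, 358 and 493 with H2S at 3 h, 6 h and 24 h. At 144 h they were 419.8, 325, 358 and 1356 in air and 541, 353, 448 and 259 with H2S. Animals 18 and 22 gave the highest signals of the gene, and the exposed and air ranges overlapped at each time. The differences against air were 0.14, -0.39, -0.50 and -0.38 at 3 h, 6 h, 24 h and 144 h. Without animals 18 and 22 they were 0.78, 0.25, 0.14 and 0.077, with limma adjusted p from 0.588 to 0.999. The log2 values of Itga6 1383240_at and Itgb4 correlated at r = -0.22 (Spearman -0.21) over 23 arrays and -0.0081 (Spearman -0.075) over 21.

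Dst has alternative transcripts for epithelium, nerve and muscle, and its probe sets are not assigned to them by the platform table. Probe set 1398598_at was strong. It read 2542, 4132, 3109 and 1353 in air at 24 h, then 1623, 2144, 2481 and 2472 at 3 h, 3876, 3513 and 3973 at 6 h and 3368, 2675, 3272 and 2294 at 24 h of H2S. The 3 animals at 6 h read above every exposed animal at 3 h and at 24 h. The step from 3 h to 6 h was 0.81 (SE 0.336, unadjusted p 0.0247 and adjusted p 1 by limma), and that from 6 h to 24 h was -0.40. Over all probe sets, 3.16% had no overlap with higher values in the first step and 3.13% with lower values in the second. Against air the differences were -0.26, 0.55, 0.15 and 0.036, with air at 144 h reading 3158, 2843, 3699 and 4127 and H2S at 144 h 4394, 3834, 2932 and 3065.

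Dst 1382421_at had another course. At 144 h it read 243, 131, 203 and 339.6 in air and 396, 484, 2050.2 and 491 with H2S. All 4 exposed animals were above all 4 air animals, and animal 25 read far above the rest. The means were 7.87 ± 0.53 and 9.41 ± 1.08 (SD, n = 4 each), a difference of 1.55 (SE 0.533, unadjusted p 0.00826 and adjusted p 0.582 by limma), or 1.01 to 1.79 with each animal left out in turn. It was 1 of 13 member probe sets without overlap in that direction, against 2.5% of all probe sets. At 24 h the signals were 249, 137, 349 and 789 in air and 599, 533, 156 and 454 with H2S, a difference of 0.30. At 3 h (476, 243, 293 and 612) and 6 h (257, 253 and 278) the differences from air at 24 h were 0.26 and -0.25. The 2 Dst probe sets correlated at r = -0.33 (Spearman -0.31) over 23 arrays and -0.22 (Spearman -0.24) without animals 18 and 22. The 3 untested probe sets read 3.52 to 30.4 (1385122_at), 0.956 to 417 (1395274_at) and 2.35 to 114 (1397469_at).

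**Figure D3:**
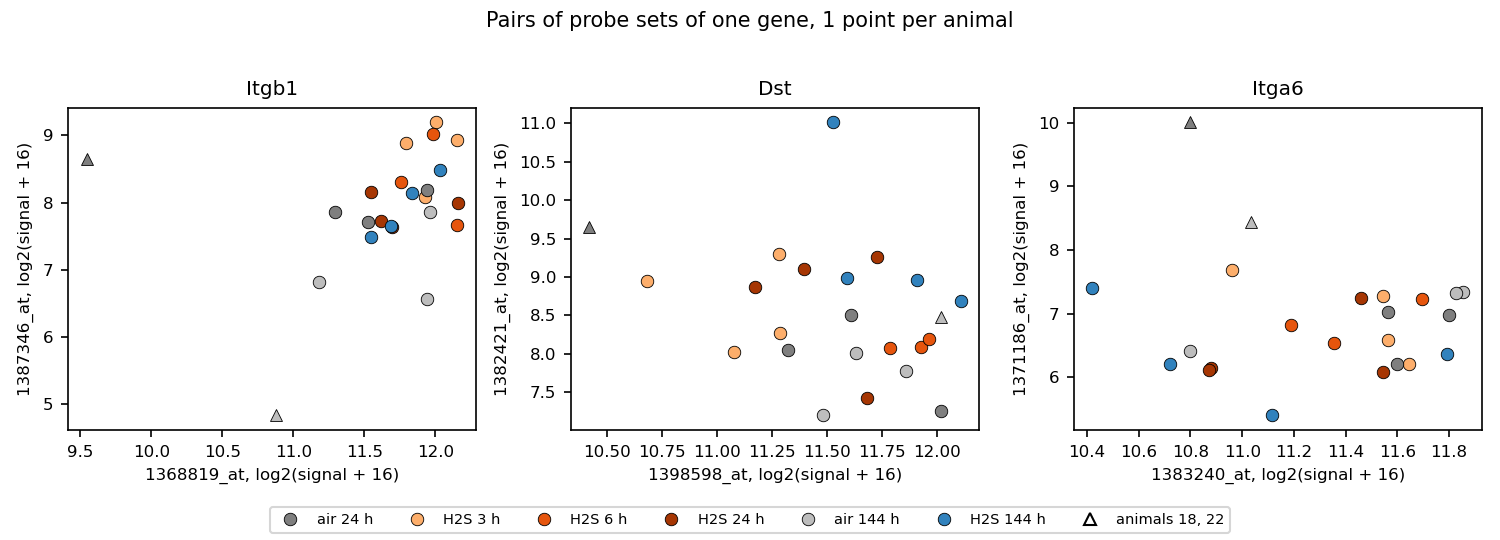
Log2(signal + 16) of a pair of probe sets of Itgb1, Dst and Itga6, 1 point per animal, coloured by group with triangles for animals 18 and 22. The pairs correlate at r = 0.24 (Itgb1), -0.33 (Dst) and -0.15 (Itga6) over 23 arrays.

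Itga3 and Itgb1 encode the actin-linked laminin receptor, with beta 1 also the partner of many other alpha subunits in most cell types. Itga3 1389282_at read 1133, 807, 1268 and 544 in air at 24 h and 1057, 1808, 879 and 1835, 1015, 1439 and 618 and 1465, 1069, 1138 and 1154 with H2S at 3 h, 6 h and 24 h. At 144 h it read 899, 1145, 1572 and 970.3 in air and 820.3, 1184, 972 and 785 with H2S. The ranges overlapped at every time. The differences were 0.56, 0.12, 0.42 and -0.27, with limma adjusted p from 0.58 to 0.94.

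Itgb1 1368819_at read 2926, 2494, 3923 and 730.2 in air at 24 h, where animal 18 was far below the rest. With H2S it read 3540.3, 3876, 4544 and 4102 at 3 h, 3454, 4536 and 4035 at 6 h and 3303, 3120.4, 2981 and 4554 at 24 h. At 144 h it read 2311, 3969, 3919 and 1862 in air and 2973, 3281, 3635 and 4166 with H2S. The unadjusted p under 0.05 at 3 h and 6 h (0.90 and 0.89, limma adjusted p 0.475 and 0.781) depended on animal 18: without animals 18 and 22 the differences were 0.38 and 0.38, with unadjusted p of 0.142 and 0.174.

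The other Itgb1 probe set, 1387346_at, was weaker and above the median on 19 arrays. At 144 h it read 96.9, 216, 78.7 and 12.6 in air and 164, 186, 266 and 342 with H2S. Animal 22 was at the bottom of the air range and animal 20 within the exposed range, so the groups overlapped. The difference was 1.42 (SE 0.468, unadjusted p 0.00595 and adjusted p 0.58 by limma), and 0.86 without animals 18 and 22. Exposed animals at 24 h read 183, 195, 269 and 239, and the step from 24 h to 144 h of exposure was 0.067. The air animals differed, from 193, 217, 276 and 386 at 24 h, by -1.58 (unadjusted p 0.00265 and adjusted p 0.542 by limma), and by -0.84 without animals 18 and 22. At 3 h and 6 h the signals were 458, 255, 472 and 570.1 and 302, 187 and 503, differing from air at 24 h by 0.67 and 0.23. The 2 Itgb1 probe sets correlated at r = 0.24 (Spearman 0.43) over 23 arrays and 0.46 (Spearman 0.49) over 21. At 144 h the air animals had RNA integrity numbers of 5.6, 6.4, 5.1 and 6.9 and the exposed animals 4.8, 5.1, 4.5 and 1.7. With that number as a covariate, over the arrays that have one, the 144 h differences were 1.30 for this probe set and 1.72 for Dst 1382421_at.

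Cd44, the hyaluronan receptor, was read by 1368921_a_at. Signals were 714, 526, 589 and 249 in air at 24 h and 697, 1202, 914 and 845, 519, 1282 and 511 and 1200.2, 466, 561 and 511 with H2S at 3 h, 6 h and 24 h. At 144 h they were 1264, 629, 376 and 1037 in air and 737, 587, 1251 and 610.3 with H2S. At 3 h, 3 of 4 exposed animals exceeded the whole air group, and animal 3 lay within it. The 3 h difference was 0.86 (SE 0.433, limma adjusted p 0.524), and 0.56 without animals 18 and 22. At 6 h, 24 h and 144 h it was 0.51, 0.37 and 0.02. Summed leukocyte markers (9 of 10 measured) ran from 6806 to 33068 in air at 24 h and from 17810 to 47362 at 3 h, and the log2 Cd44 value correlated with them at r = 0.57 (Spearman 0.59) over 23 arrays and 0.51 (Spearman 0.53) over 21. The part of leukocytes in the Cd44 values was not tested. The untested 1387952_a_at read 7.98 to 226.

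Of the basal cell markers, 7 of 8 were measured and Ngfr was not. Their summed signal (log2) had its highest Pearson correlation among the members with Tp63 over the 23 arrays, and its highest Spearman correlation with Lamb3. The sum was 5353 to 14142 in air at 24 h, 19810 to 59893 at 3 h, 15745 to 34030 at 6 h and 15822 to 55093 at 24 h of H2S. Those ranges did not overlap the air range at 24 h, and each was set against the same air animals. Over all single probe sets, 3.02% at 3 h and 2.22% at 24 h had no overlap with higher values than air. That share was not counted at 6 h, where the lowest exposed sum, 15745, lay near the highest air sum, 14142. The sum was mostly Krt15, with a median of 22374 in a median sum of 34963 at 24 h of H2S. At that time Krt15 read 8787 to 31028 against 2623 to 6621 in air, while each of the other 6 markers overlapped air. At 144 h the sum was 4501 to 40887 in air and 21716 to 119230 with H2S, with the highest value in animal 25, which also had the highest Tp63 and Dst 1382421_at signals. Of the 7 markers, 0 passed the adjusted threshold in any of the 4 exposure comparisons by limma, and 3, 2, 2 and 3 had an unadjusted p under 0.05 at 3 h, 6 h, 24 h and 144 h, beside 9.8%, 5.81%, 8.09% and 7.8% of all probe sets.

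Markers of other cell types also differed from air in the same comparisons, with 0 past the adjusted threshold by limma. Their part in the member values was not tested. The median log2 difference over all genes was 0.14 at 3 h, 0.10 at 6 h, 0.14 at 24 h and 0.011 at 144 h. At 3 h the median log2 difference was 0.91 for the basal markers (7 of 7 above air), 1.07 for the ciliated markers (8 of 8), 0.90 for the general epithelium markers (6 of 6) and -0.88 for the olfactory markers (1 of 8). Without animals 18 and 22 these were 1.28, 1.06, 0.76 and -0.34. Leukocyte and secretory markers stood at 0.72 (8 of 9 above air) and 0.49 (5 of 7) at 3 h, and at 0.36 and 0.62 without those animals. At 6 h the ciliated and secretory markers had medians of -0.51 (1 of 8 above air) and -1.25 (1 of 7), beside 0.67 for the basal markers (6 of 7). With animals 18 and 22 left out they were -0.47, -0.82 and 0.89. At 24 h the basal, ciliated and general epithelium medians were 0.86 (7 of 7), 0.52 (7 of 8) and 0.56 (6 of 6), and 1.05, 0.49 and 0.46 without those animals. Secretory and leukocyte markers stood at 0.62 (4 of 7) and -0.11 (4 of 9) at 24 h, and at 0.39 and -0.63 without those animals. At 144 h they were 1.27 (6 of 7), 0.84 (8 of 8) and 0.76 (5 of 6), and the cartilage and bone markers had a median of -1.59 (1 of 5). Summed ciliated markers ran from 5149 to 13344 in air at 24 h and from 10967 to 30397 at 3 h of H2S. Summed general epithelium markers ran from 14980 to 43875 and from 37801 to 129135 in the same groups, and olfactory markers from 9468 to 21022 and from 3432 to 8623.

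Over the 23 arrays, which share the exposure groups and the scaling, the summed basal marker signal (log2) correlated with Tp63 at r = 0.84 (Spearman 0.77), with Lamb3 at 0.72 (Spearman 0.80) and with Dst 1382421_at at 0.66 (Spearman 0.65). Without animals 18 and 22 the same values were 0.87, 0.71 and 0.78. Leaving out instead the 2 animals farthest from the median gave 0.72, 0.78 and 0.52. With the summed general epithelium markers, Tp63, Lamb3 and Dst 1382421_at correlated at 0.20, 0.54 and 0.13, and at 0.27, 0.52 and 0.32 over 21 arrays. With the summed ciliated markers the values were 0.35, 0.35 and 0.36, and 0.32, 0.27 and 0.40 over 21 arrays. For the hemidesmosome integrins and the other Dst probe set, r with the basal sum was -0.12 for Itga6 1383240_at, 0.12 for Itgb4 and -0.014 for Dst 1398598_at. Over 21 arrays these were -0.15, 0.20 and -0.21. Cd44 stood at 0.21, Itga3 at 0.14 and Lama3 at 0.42, and at 0.094, 0.076 and 0.36 without those animals. The Itgb1 probe sets 1368819_at and 1387346_at stood at 0.34 and 0.16 over 23 arrays and at 0.55 and 0.49 over 21. The low Itga6 probe sets 1371186_at and 1393558_at stood at -0.32 and 0.11, and at -0.45 and 0.074 over 21. Itga6 1383240_at ran against the summed ciliated cell markers, with r = -0.61 (Spearman -0.58) and -0.63 without animals 18 and 22. It is named as the largest in size of the member correlations with that list. The low Itga6 probe sets 1371186_at and 1393558_at stood at -0.18 and 0.024 with the ciliated markers, and at -0.55 and -0.046 over 21 arrays.

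**Figure D4:**
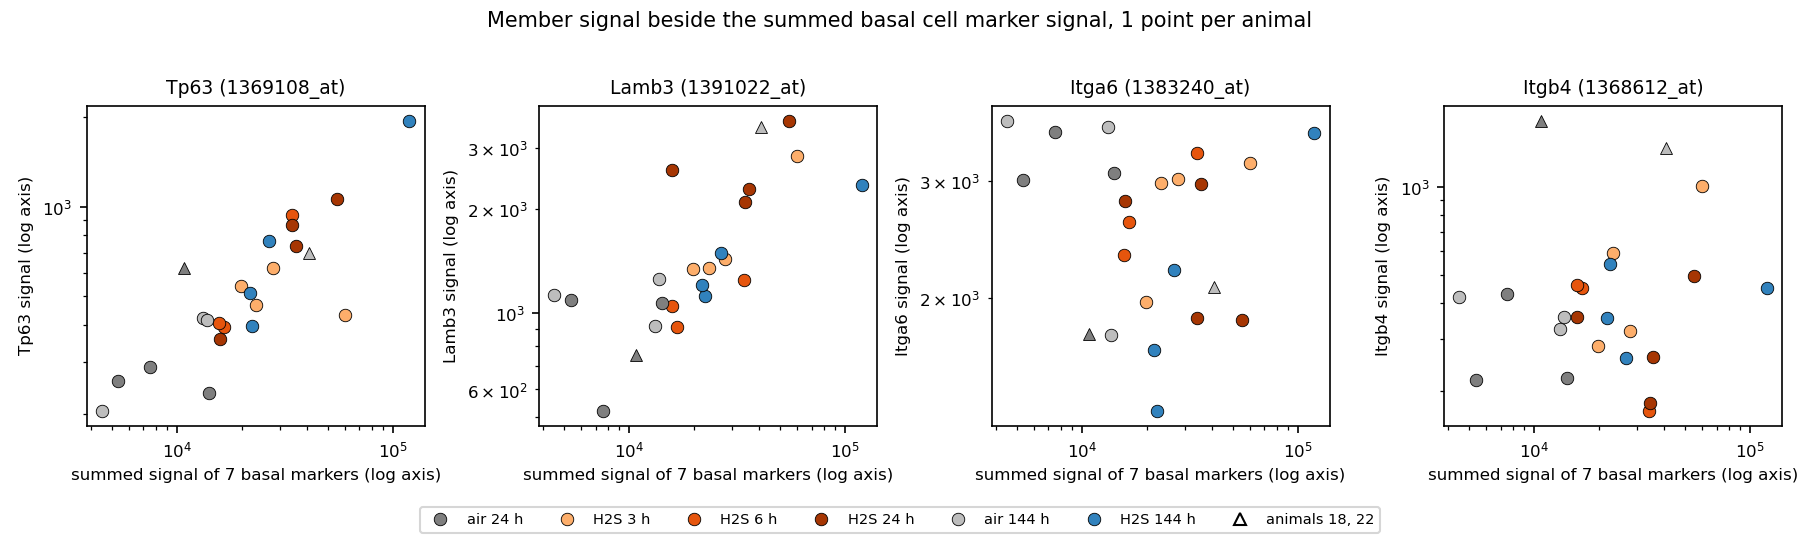
Signal of Tp63, Lamb3, Itga6 (1383240_at) and Itgb4 against the summed signal of 7 basal cell markers, both on log axes, 1 point per animal coloured by group, triangles for animals 18 and 22. Tp63 (r = 0.84) and Lamb3 (0.72) run with this sum over the 23 arrays, Itga6 (-0.12) and Itgb4 (0.12) do not. The sum is mostly Krt15, and Tp63 correlated with Krt15 alone at r = 0.81.

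Other genes of the same machinery were examined as 6 lists, with 1 probe set per gene, and 0 genes of any list passed the adjusted threshold in any of the 9 comparisons by limma. The hemidesmosome partners (5 of 6 measured) had median log2 differences of 0.48, 0.13, 0.49 and 0.75 at 3 h, 6 h, 24 h and 144 h against air, beside 0.14, 0.10, 0.14 and 0.011 over all genes, with 1, 0, 0 and 0 genes at an unadjusted p under 0.05. Over all probe sets 9.8%, 5.81%, 8.09% and 7.8% were at that level, the background for this count and for those of the lists that follow. The medians without animals 18 and 22 were 0.87, 0.015, 0.37 and 1.33. Krt14, a keratin of basal cells, stood at 2.04 at 3 h (SE 0.952) and 1.87 at 144 h, and at 2.26 and 2.80 without those animals. Col17a1, the transmembrane collagen of hemidesmosomes, stood at -1.36 at 3 h. Plec, the plectin linker, stood at -0.48 at 6 h and -0.73 at 144 h, and at -0.087 and -0.36 without those animals. Krt5 stood at 1.09 and the tetraspanin Cd151 at 0.49 at 24 h.

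Of the other integrin subunits, 8 of 12 were measured, with 3, 2, 2 and 1 at an unadjusted p under 0.05 and medians of 0.65, 0.33, 0.14 and 0.025. The medians became -0.037, 0.13, -0.22 and 0.041 without animals 18 and 22, of the other sign at 3 h and 24 h. Itgb5, which pairs with alpha v to bind vitronectin, stood below air at 24 h in the 3 first-day groups, with differences of -1.24 at 3 h (SE 0.338, limma adjusted p 0.250), -1.24 at 6 h and -1.15 at 24 h, comparisons that share the air animals. Its mean was 8.80 ± 0.539 (SD, n = 4) in air and 7.57 ± 0.099 (SD, n = 4) at 3 h. Itgb6, the epithelial partner of alpha v, stood at 1.06 at 3 h, Itga1 at 1.27 at 6 h and -0.99 at 144 h, Itgb3 at -1.10 at 24 h and Itga7 at -1.55 at 144 h. The 6 h value of Itga1 was 0.69 without animals 18 and 22.

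Other laminins and basement membrane genes (19 of 22 measured) had medians of 0.084, 0.25, -0.083 and -0.073, and 1, 1, 1 and 2 at an unadjusted p under 0.05. With animals 18 and 22 left out they were -0.21, 0.16, -0.20 and -0.036, of the other sign at 3 h. Lamc1, the gamma 1 chain of most laminins, stood at 0.82 at 3 h and 0.92 at 6 h. Hspg2, which encodes perlecan, stood at -1.14 at 3 h, Lama4 at 0.75 at 6 h, Lama2 at -1.05 and the anchoring fibril collagen Col7a1 at 0.65 at 24 h, and Nid2 at -1.02 and Col4a2 at -1.01 at 144 h. Leaving out animals 18 and 22 gave 0.49 and 0.59 for Lamc1, -0.56 for Hspg2, 0.44 for Lama4 and -0.47 for Col4a2. Integrin-linked adaptors and kinases (15 of 16 measured) had medians of 0.098, 0.016, -0.20 and -0.067, with 3, 2, 1 and 1 at that level, and medians of 0.18, 0.044, 0.032 and 0.12 without animals 18 and 22, of the other sign at 24 h and 144 h. Among them Vcl, which encodes vinculin, stood at 0.94 and Bcar1 at 1.33 at 3 h, Parvb at -1.30 and Rsu1 at -0.98 at 6 h, Bcar1 at 1.12 and Parvb at -1.0 at 24 h, and Zyx at -1.0 and Actn1 at 0.49 at 144 h. All but Vcl and Rsu1 moved by over 1.5 times without animals 18 and 22: Bcar1 to 0.84 at 3 h and 0.63 at 24 h, Parvb to -0.81 at 6 h and -0.51 at 24 h, Zyx to -0.54 and Actn1 to 0.22 at 144 h.

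The provisional matrix and Cd44 list (12 of 16 measured) had medians of 0.32, 0.58, 0.33 and -0.18, with 3, 0, 3 and 3 genes at an unadjusted p under 0.05. When animals 18 and 22 were left out, they were 0.21, 0.39, 0.096 and 0.036, of the other sign at 144 h. Ezr, whose product ezrin links Cd44 to actin, stood at 1.45 at 3 h (SE 0.351), the smallest adjusted p of the listed genes at 0.165 by limma, and at 0.94 at 24 h and 1.15 at 144 h. Sdc4, a heparan sulfate receptor of focal adhesions, stood at 1.78 at 3 h, Spp1, which encodes osteopontin, at -1.01 at 6 h and -1.70 at 24 h, Mmp9 at -1.16 at 6 h and Sdc1 at 1.36 at 144 h. The p63-associated basal genes (8 of 12 measured) had medians of 0.62, 0.50, 0.73 and 1.13, with 2, 2, 2 and 4 at that level, and 5 of the 8 are also among the basal markers summed above. For the 21 arrays other than animals 18 and 22 the medians were 0.47, 0.0080, 0.46 and 1.09. The 6 h median thus rested on animal 18, which is in the air group at 24 h. Krt15, a basal keratin, stood at 1.94, 1.63 and 2.32 at 3 h, 6 h and 24 h (limma adjusted p 0.396 at 24 h), the water channel Aqp3 at 1.77, 1.65 and 1.67 at 3 h, 24 h and 144 h, Pdpn at 1.21 at 6 h and Trim29 at 1.27 at 144 h.

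Among all genes, those most like each member over the 23 arrays were named by the Pearson correlation of log2 values, as a description. For Tp63 they were Upk1b (r = 0.89, Spearman 0.84), S100a14 (0.86, Spearman 0.85) and Muc4 (0.83, Spearman 0.73), and without animals 18 and 22 Krt15 took the place of Muc4 at 0.87. For Lamb3 they were Trip13 (0.80, Spearman 0.75), Tmem134 (0.77, Spearman 0.76) and Bspry (0.77, Spearman 0.82). For Itga6 1383240_at they were Abhd17c (0.82, Spearman 0.87), Slc7a1 (0.78) and Tbc1d4 (0.76). Without animals 18 and 22, 2 of these 3 genes were still among the nearest 3 for Tp63 and for Itga6, and 1 (Trip13) for Lamb3. For Itgb4, Itga3, Itgb1, Lama3, Dst and Cd44, 0 of the 3 were, so which genes ranked nearest depended on the 2 animals. Over 23 and 21 arrays r was 0.94 and 0.72 for Eif4e with Itgb1 1368819_at, 0.88 and 0.74 for Map3k11 with Itgb4, 0.80 and 0.75 for Ppard with Itga3, 0.77 and 0.68 for Anxa9 with Lama3, 0.82 and 0.73 for Dlg4 with Dst 1398598_at and 0.77 and 0.65 for Chpf with Cd44. Among members, Tp63 and Lamb3 correlated at r = 0.53 (Spearman 0.57) and the 2 laminin chains at 0.41 (Spearman 0.29), which was 0.23 (Spearman 0.11) without animals 18 and 22, and Itga3 with Itgb1 1368819_at at 0.53, which was 0.26 without them.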

How the data were processed

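RNA of laser-captured nasal respiratory epithelium, 1 rat per array, was measured on 23 Rat230_2 arrays in 6 groups. RNA was amplified in more than 1 round per the labels. Amplification of small samples can compress or distort levels. The deposited values are linear intensity, 1 value per probe set and array, produced by the authors with GCOS 1.0 per the submitters' processing notes, with settings not given in the sources used here. Trimmed means (2% off each end) were nearly equal, so no further normalization was applied. Groups were taken from the titles. All columns of the table were used (0 left out).

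Values were log2(signal + 16). Of 31099 probe sets, 19822 passed the filter (a signal over the array's median on 3 or more arrays), and 57 control probe sets were left out. The platform table gave 1 symbol to 20832 probe sets, several to 436 and none to 9831. A single model of 6 group means over all 23 arrays was fitted with limma 3.58.1 in R 4.3.3 (lmFit, contrasts, eBayes; two-sided), with Benjamini-Hochberg adjustment over the kept probe sets and a threshold of 0.05, and 9 comparisons were made. The script was tested on simulated data. How precise the values are depends on the number of arrays. The limma p-values weigh each difference against the pooled spread between arrays within groups. With 1 array per animal, that spread holds animal and technical differences together. Nothing in the labels pairs animals across groups.

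Each member was described with all its probe sets. In 6 lists of other genes, a gene was read by its kept probe set with the highest mean, and where no gene passed the threshold, the 2 genes with the smallest p per list were named. Likeness named the 3 genes with the highest Pearson correlation, of which the leading ones are given. The members and lists were chosen with earlier results of these data known, so they are no independent evidence. Alternatives were the pseudocount (1, 64), the filter, quantile normalization, median centring, array weights, trend and robust options, the RNA integrity number, the groups in the fit, and leaving out arrays. A change of sign counts as reversed where the reported difference exceeded its standard error.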

Additional observations from a re-analysis of the deposited data

Results flagged for a closer look

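In groups of 4 animals, extreme member values were sought on the log2 scale of the tests, while the signals below are linear. A value was singled out where its gap to the neighbour, as a share of the group's range, exceeded Dixon's 95% critical value. Of 65 groups examined, 4 met it, and chance alone singles out about 1 in 20. Lamb3 read 2838.5 in animal 6 at 3 h of H2S, above 1342 to 1428 in the others. Dst 1382421_at read 2050.2 in animal 25 at 144 h of H2S, above 396 to 491. Itga6 1371186_at read 136 in animal 13 at 24 h of H2S, above 51.8 to 55.2. Itga6 1383240_at read 1976 in animal 4 at 3 h of H2S, below 2972 to 3190, while the remaining extremes were high.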

How the results depend on the processing

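Over 37 alternative settings of the 117 member differences (2557 values), the 0 calls of the 9 comparisons held in all but 1: at 24 h against air, 1 member probe set (Lamb3, 1.42, adjusted p 0.0416 by limma) was called with array weights. The adjusted p of that difference otherwise ran up to 0.9999. A total of 211 alternative values had the other sign, 10 of them reversals and the others from differences smaller than their standard error. Array weights gave 0.16 for Itga6 1371186_at and -0.022 for Cd44 at 6 h against air, and -0.029 for Itgb1 1368819_at between the air groups. Adjusted for RNA integrity, Lama3 stood at -0.14 at 3 h against air and 0.23 from 3 h to 6 h (0.21 over the same arrays with no covariate). Leaving out 1 animal moved that Lama3 step between -1.08 and 0.0024, and the Itgb1 1368819_at difference between the air groups between -0.096 and 0.70; it was -0.096 without animals 6, 14 and 18 and without RNA integrity numbers under 3. The causes were not tested. No paired analysis was possible because animal numbers are unique to 1 group. Signal over background limits the precision of the low probe sets (Lama3, Itga6 1371186_at and 1393558_at).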
